A study of Homo sapiens with 62 samples.

Results

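The genes described here are 44 human genes that act in DNA replication and mitosis, 15 of them in replication and 29 in mitosis. They were taken by gene name from every count table, from 58735 genes in the tables of A2058, AGS, HCT116 and MCF10A and 48162 in those of A2780. Each of the 44 was found once in every table. Of the members, DTL, CKS1B, NUF2, ASPM, KIF14, NEK2 and CENPF lie on 1q, MCM4 on 8q and ANLN on 7p, so a loss of those arms also removes 1 copy of the gene itself. The remaining members lie outside the arms that were lost.

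A dividing cell loads the MCM2 to MCM7 helicase onto its origins with CDC6 and CDT1 and then copies its DNA with factors such as GINS2 and PCNA, while RRM1, RRM2 and TYMS supply deoxynucleotides. E2F1 is a transcription factor that switches on many of these genes as cells leave G1. Genes of mitosis rise later, in G2, under the transcription factor FOXM1 and partner complexes. They encode cyclins and CDK1, the spindle checkpoint (BUB1, BUB1B), kinetochore proteins (NDC80, NUF2, CENPE, CENPF), the Aurora and Polo kinases and the kinesins and ANLN that build the spindle and divide the cell. In bulk RNA their level follows both how many cells are cycling and how much each cell makes, and these cannot be told apart here.

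RNA was sequenced from 5 cell lines and from clones of them that had lost 1 chromosome arm of which the line carries an extra copy. The loss clones each grew from a single cell and were engineered with ReDACT, whose versions the labels call NS, TR and CO. A2058 (melanoma) had 4 wild-type (WT) libraries, 4 1q-loss libraries of 2 clones, 6 7p-loss libraries of 3 clones and 4 8q-loss libraries of 2 clones, all losses by CO. HCT116 (colorectal cancer) had 2 WT libraries and 4 8q-loss libraries of 2 clones, by CO. AGS (gastric cancer) had 1 WT library, 2 libraries, of 1 clone each, that keep the gain and carry the TK+ integrant (TK+), and 5 1q-loss libraries of 1 clone each, clones 1, 4, 6 and 7 by NS and clone 11 by CO. A2780 (ovarian cancer) had 2 WT, 2 TK+ and 6 1q-loss libraries of 3 clones, by NS. MCF10A (breast epithelium) had 2 WT libraries and 8 1q-loss libraries of 4 clones, clones 1 to 3 by TR and clone 4 by CO, and the same numbers of each from cells that also express hRASV12, an activated HRAS (hRas). Controls were the libraries of the same line that keep the gain, and all cells were plated and grown for 24 h before RNA was taken. The 3 A2058 comparisons share their WT libraries. The labels call the MCF10A pairs biological replicates and do not say whether any libraries came from separate cultures, so p-values measure the spread between these libraries.

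Library totals ran from 15042068 to 30984036 counts. The A2058 1q-loss libraries stood apart: 6 melanoma genes summed to 48.5 to 250 CPM there and to 2497 to 4426 CPM in A2058 WT, where CPM are counts scaled to a common library total. The 6 basal breast markers summed to 54.3 to 266 CPM in these clones and 2.14 to 4.22 in A2058 WT, and the 4 fibroblast markers to 134 to 264 and 35.7 to 45.7. Whether these clones descend from the same cells as the WT libraries was not tested. The 6 basal markers of MCF10A summed to 9081 to 9706 CPM in WT, 7966 to 14411 after 1q loss and 7589 to 8019 in hRas WT. Among the hRas 1q-loss libraries clone 2 stood apart, at 1784 and 1704 CPM against 8151 to 11231 in the other clones. Gastrointestinal markers, 7 genes, summed to 3495 to 4063 CPM in HCT116 WT and 2235 to 5533 after loss, and to 4122 to 5362 in the AGS controls and 6255 to 8325 after loss. A2780 lacked WT1, and its 5 ovarian markers summed to 132 to 137 CPM in WT but 3.64 to 4.96 in TK+ and 3.98 to 44.9 after loss. Of 4 blood markers, CD3E was at 3 counts or fewer in all lines but HCT116, and HBB in all 5; the 4 summed to at most 1.63 CPM outside AGS. In AGS, LYZ alone ran from 20.9 to 1921 CPM, with 467 in WT, 84.2 to 1921 in TK+ and 20.9 to 119 after loss. Throughout, a gene is called where its adjusted p is under 0.05 by edgeR's quasi-likelihood test, with Benjamini-Hochberg adjustment over all genes tested in that comparison, and a log2 change is the log2 fold change of loss over control.

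All members were expressed in every line. Levels were taken in CPM per kilobase of the gene length in each line's own tables. The A2780 tables give other lengths, such as 1166 bases for CKS1B against 2338 in the other lines (the ratio had a median of 1.21 over the 44), so A2780 levels are not compared with those of other lines. The median member stood at 33.2 in A2058 WT, 18.4 in HCT116 WT, 9.78 in AGS WT, 47.1 in A2780 WT and 35.9 in MCF10A WT. The highest members were CKS2 (140), PCNA (136) and CDC20 (99.8) in A2058, CDC20 (525), MCM7 (202) and CKS2 (163) in HCT116, and PCNA (159), CKS2 (66.1) and UBE2C (63.0) in AGS. MCM7 (188), CKS2 (143) and MCM4 (127) led in A2780, and CDC20 (176), PCNA (173) and CCNB1 (132) in MCF10A. CENPE, a kinetochore motor, was among the 3 lowest in all lines but A2780, at 9.88, 0.620, 3.05 and 13.6 in A2058, HCT116, AGS and MCF10A. HCT116 stood apart at this end, with ASPM at 0.811 and KIF14 at 0.470. KIF14 was also among the lowest in A2058 (12.8) and AGS (4.20), NDC80 in A2058 (10.7), A2780 (17.4) and MCF10A (12.3), NUF2 in A2780 (13.9) and MCF10A (17.1), BIRC5 in A2780 (13.4) and GINS2 in AGS (4.13).

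The median member lay above its controls in some lines and below them in others, and how many members were called depended on whether those of the lost arm were counted. Over all 44 members the median change was -0.056 in A2058 1q-loss, 0.091 in A2058 7p-loss, -0.19 in A2058 8q-loss, 0.31 in HCT116 8q-loss and 0.38 in AGS 1q-loss. It was -0.17 in A2780 1q-loss, -0.18 in MCF10A 1q-loss and -0.31 in MCF10A hRas 1q-loss. Without the members on the lost arm these medians became -0.020, 0.093, -0.18, 0.34 and 0.49, and then -0.16, -0.16 and -0.25, beside medians of 0.012 to 0.044 over all genes outside the arm. Members called lower went from 16 of 44 to 9 of 37 in A2780, from 7 of 44 to 0 of 37 in MCF10A, from 2 of 44 to 0 of 37 in MCF10A hRas and from 7 of 44 to 4 of 37 in A2058 1q-loss. Of all genes outside 1q, 3.96% were called lower in A2780 (members 24.3%), 0.174% in MCF10A, 0.0330% in MCF10A hRas and 22.7% in A2058 (members 10.8%). In A2058 8q-loss the single member called, MCM4, lay on the lost arm.

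**Figure D1:**
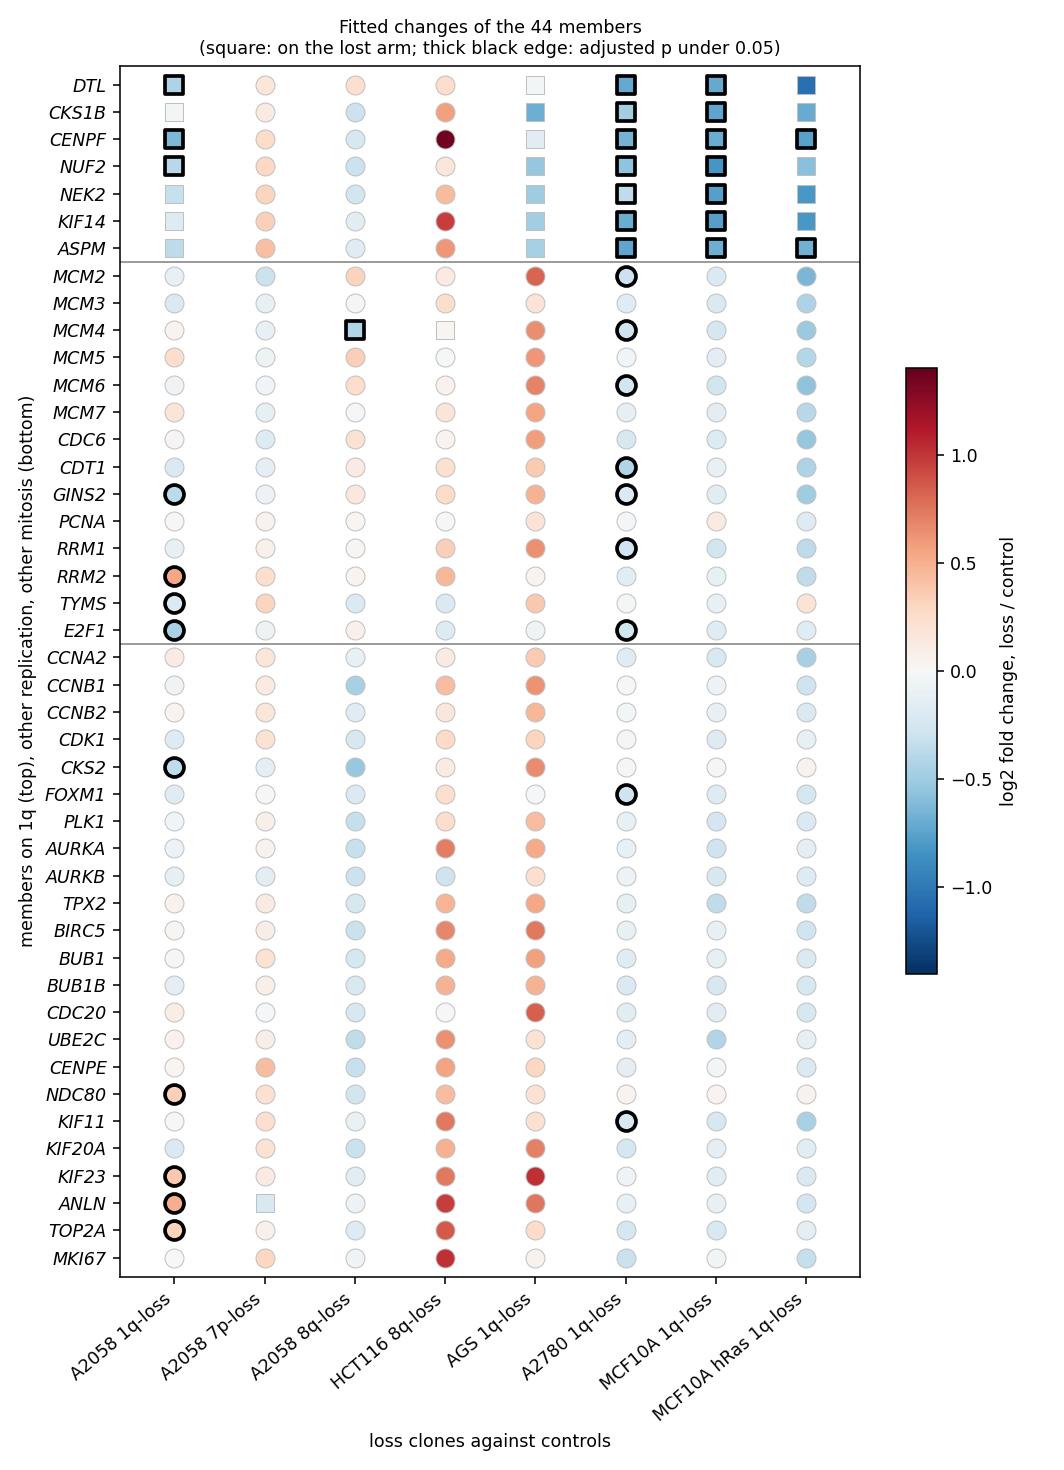
Log2 fold change (colour) of each of the 44 members (rows) in the 8 comparisons of loss clones with controls (columns); squares are members on the lost arm and thick black edges mark calls. All 7 members on 1q are called lower in A2780 and MCF10A, with medians of -0.66 and -0.74 beside -0.16 and -0.16 over the members elsewhere, and the AGS and HCT116 columns are mostly red without calls.

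All 7 members on 1q were called lower in A2780 and in MCF10A. Of the tested genes of 1q, 48.7% and 34.6% were called lower there. DTL marks CDT1 for destruction, CKS1B binds cyclin-dependent kinases, NEK2 is a centrosome kinase, ASPM works at spindle poles, KIF14 is a kinesin of cell division, and NUF2 and CENPF belong to the kinetochore. They lie between 154974653 (the start of CKS1B) and 214664588 (the end of CENPF) on chromosome 1 (GRCh38). All 7 fell in A2780, by 0.35 (NEK2) to 0.74 (ASPM) on the log2 scale, with a median of -0.66 (63.4% of control) beside -0.45 (73.4%) over the 647 tested genes of 1q. DTL stood at 165 and 160 CPM in A2780 WT, 164 and 160 in TK+, 83.7 and 84.3 in clone 2, 106 and 107 in clone 5 and 106 and 104 in clone 6. No loss library reached the controls (log2 change -0.72, SE 0.0816, adjusted p = 0.000391). CENPF ran from 676 to 762 CPM in the 4 controls and from 399 to 549 in the 6 loss libraries (log2 change -0.66, SE 0.0868, adjusted p = 0.00102). All loss libraries lay below all controls for 6 of the 7, and for 49.5% of the tested genes of 1q. They overlapped for CKS1B (110 ± 17.2 against 78.0 ± 13.3 CPM, mean ± SD, n = 4 and 6; log2 change -0.49, adjusted p = 0.0419). The calls of CKS1B and NEK2 (-0.35, adjusted p = 0.0383) were each lost in 12 of 22 alternative fits, with adjusted p up to 0.264 and 0.196.

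In MCF10A all 7 fell again, by 0.68 (ASPM) to 0.83 (NUF2), with a median of -0.74 (59.7% of control) beside -0.49 (71.0%) over the 710 genes of 1q. CKS1B was at 128 and 133 CPM in the WT libraries and between 64.7 and 90.3 in the 8 loss libraries, with clone 4 lowest at 64.7 and 66.2 (log2 change -0.74, SE 0.115, adjusted p = 0.00361). NUF2 was at 53.1 and 62.1 CPM in WT and 23.5 to 39.5 in the loss libraries (log2 change -0.83, SE 0.145, adjusted p = 0.00665). For all 7 the highest loss library lay below the lower WT library, as for 54.1% of the tested genes of 1q. With 1 WT library left out, whichever it was, the control arm is a single library assumed to vary like the loss libraries. By that fit 0 of the 7 were called, though all 7 had an unadjusted p under 0.05 and log2 changes below 0. Of the genes of 1q, 1.88% were called lower without WT replicate 1 and 7.66% without WT replicate 2.

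In MCF10A hRas all 7 members on 1q lay below their controls in every library, as did 42.8% of the tested genes of 1q. The members had changes of -1.05 (DTL) to -0.59 (NUF2), a median of -0.76 (59.2% of control) and -0.36 (77.7%) over the 720 genes of the arm. DTL was at 150 and 167 CPM in hRas WT, 102 and 94.3 in clone 1, 59.2 and 60.0 in clone 2, 97.6 and 90.5 in clone 3 and 59.4 and 50.5 in clone 4. Its change was not called (SE 0.249, adjusted p = 0.136). Of the genes of 1q, 3.47% were called lower. Among the members only ASPM (-0.67, SE 0.0981, adjusted p = 0.0306) and CENPF (-0.76, SE 0.126, adjusted p = 0.0475) were called, and those calls were lost in 13 and 15 of 21 alternative fits, with adjusted p up to 0.787 and 0.878. CENPF was at 287 and 293 CPM in hRas WT and 133 to 199 in the loss libraries. KIF14 (-0.81), NEK2 (-0.82) and CKS1B (-0.71) were not called (adjusted p = 0.0698, 0.15 and 0.237). DTL, KIF14 and NEK2 were each called in 1 of 21 alternative fits, with adjusted p down to 0.0127, 0.000981 and 0.0221.

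In A2058 3 of the 7 members on 1q were called lower, where 59.7% of the tested genes of 1q were. Of these, DTL (-0.43, SE 0.11, adjusted p = 0.00774), CENPF (-0.63, SE 0.219, adjusted p = 0.0355) and NUF2 (-0.39, SE 0.11, adjusted p = 0.0137) made up the 3. CENPF was at 497, 393, 383 and 262 CPM in WT replicates 1 to 4 and at 300, 205, 314 and 175 in the loss libraries, so the groups overlapped, and its call was lost in 8 of 19 alternative fits (adjusted p up to 0.281). Without A2058 clone 2 only 1 of the 7 was called, where 56.3% of the genes of 1q were called lower. ASPM (-0.37), NEK2 (-0.32) and KIF14 (-0.18) were not called (adjusted p = 0.168, 0.211 and 0.349). They were called in 3, 3 and 1 of the 19 alternative fits, with adjusted p down to 0.00276, 0.00469 and 0.0202. CKS1B stood at 103 ± 9.66 CPM in WT and 101 ± 7.61 in the loss libraries (mean ± SD, n = 4 and 4; log2 change -0.034, SE 0.0822, adjusted p = 0.759), while the 677 tested genes of 1q had a median of -0.46. Processed copies of CKS1B elsewhere in the genome held 4.80 CPM in MCF10A WT, beside 131 for the gene.

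In AGS 0 of the 7 were called by edgeR (1 at an unadjusted p under 0.05) and 1 by DESeq2, and the clones differed. Of the tested genes of 1q 32.2% were called lower. CKS1B was at 131 CPM in WT, 123 and 126 in the TK+ clones, 97.9, 110, 59.3, 58.6 and 68.4 in loss clones 1, 4, 6, 7 and 11, below the controls in every clone; the adjusted p was 0.0816 and ran from 0.0318 to 0.222 over 14 alternatives (log2 change -0.68, SE 0.213). DTL was at 29.4, 26.8 and 33.0 CPM in the controls, 39.5 and 41.9 in clones 1 and 4, and 19.4, 24.0 and 20.4 in clones 6, 7 and 11 (log2 change -0.034, SE 0.274, adjusted p = 0.954). CENPF split the same clones, with 138 and 170 CPM in clones 1 and 4, 53.6 to 57.5 in the other three and 98.4 to 119 in the controls (log2 change -0.16, adjusted p = 0.834). NUF2, NEK2, KIF14 and ASPM had log2 changes of -0.54, -0.50, -0.49 and -0.47 without a call (adjusted p = 0.279 to 0.46, and 0.145 to 0.746 over the alternatives).

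Set against mitosis members outside 1q, the 6 mitosis members on 1q were lower in every 1q-loss clone. This value is the median of the 6 minus the median of the other 23 in the same clone, and it is a description with no test. It was -1.02, -0.83, -1.07, -0.99 and -0.72 in AGS clones 1, 4, 6, 7 and 11, although the 23 themselves stood at 1.06 and 1.04 above the controls in clones 1 and 4 and at -0.078, -0.066 and -0.25 in the rest. It was -0.55, -0.42 and -0.39 in A2780 clones 2, 5 and 6, -0.57, -0.60, -0.54 and -0.63 in MCF10A clones 1 to 4, and -0.67, -0.49, -0.45 and -0.55 in the same clone numbers with hRas. A2058 clones 1 and 2 gave -0.37 and -0.30, while A2058 WT libraries ran from -0.22 to 0.14. In the other lines the control libraries lay between -0.064 and 0.054.

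**Figure D2:**
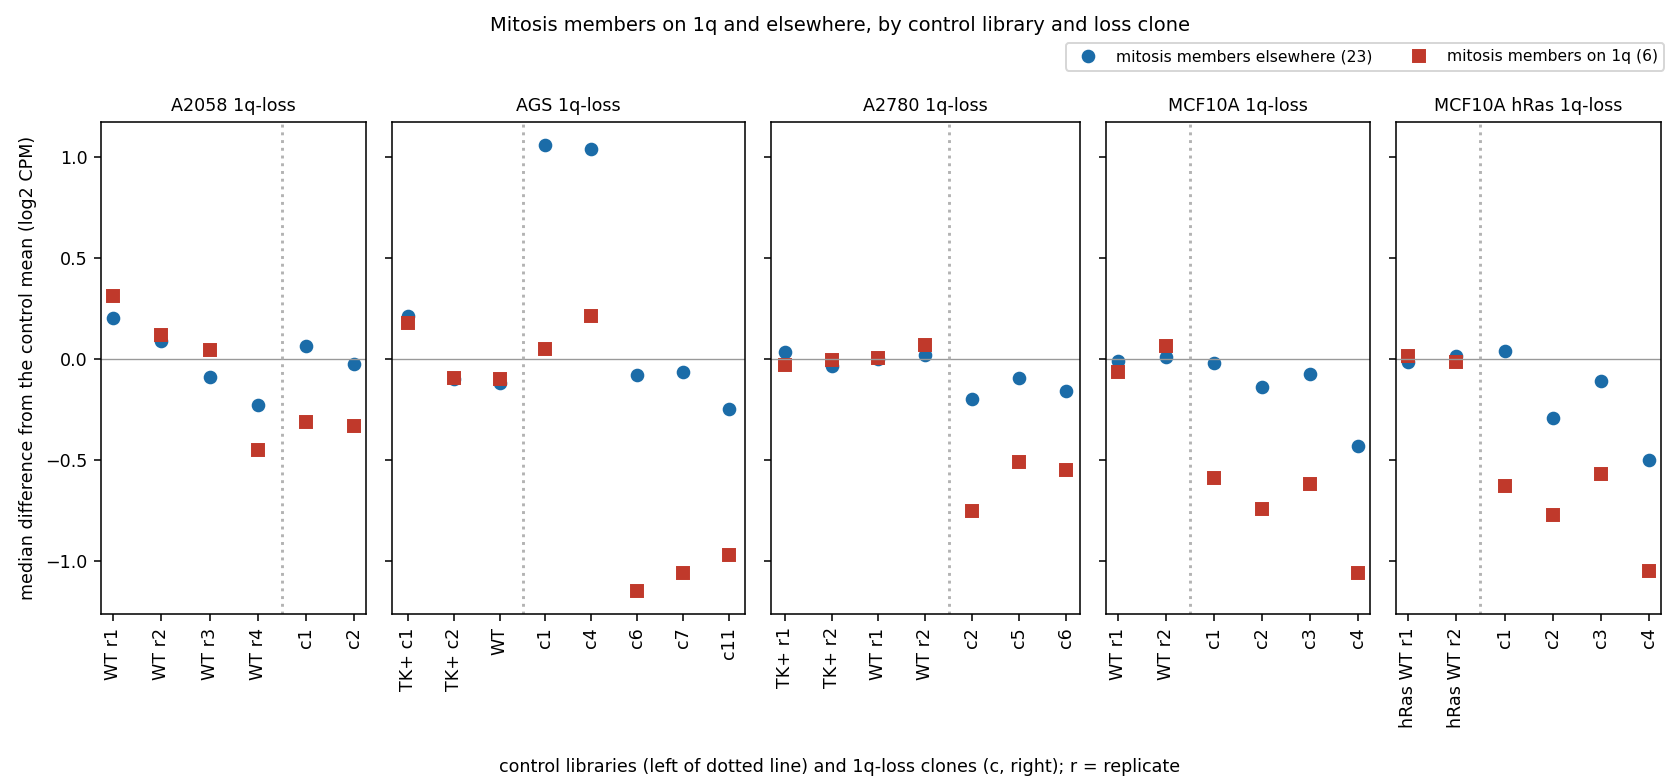
Median difference from the control mean (log2 CPM, vertical axis) of the 6 mitosis members on 1q (red squares) and the 23 elsewhere (blue circles) in each control library (left of the dotted line) and each 1q-loss clone (right). In AGS clones 1 and 4 the members elsewhere stand near 1.06 and 1.04 and those on 1q at 0.047 and 0.21, and in every loss clone the red square lies below the blue circle.

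In A2780, of the 14 replication members outside 1q, 7 were called lower and 0 higher, and of the 23 mitosis members 2 were called lower and 0 higher, which is 24.3% of the 37. Of all tested genes outside 1q, 3.96% were called lower and 6.08% higher. The 4 fibroblast markers summed to 494 to 3026 CPM after loss, 917 to 951 in WT and 294 to 372 in TK+. Their part in the result was not tested. The changes were small: the replication median was -0.22 (all 14 below 0) and the mitosis median -0.13 (20 of 23 below 0). CDT1, which loads the helicase, fell most. It was at 118 and 109 CPM in WT, 132 and 126 in TK+, 82.8 and 72.1 in clone 2, 109 and 88.0 in clone 5 and 90.5 and 101 in clone 6 (log2 change -0.42, SE 0.105, adjusted p = 0.0259). The lower WT library and the highest loss library both round to 109 CPM.

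Of the helicase subunits MCM2 to MCM7, MCM2, MCM4 and MCM6 fell in A2780, and MCM3 (-0.17), MCM5 (-0.047) and MCM7 (-0.13) were not called (adjusted p = 0.178, 0.642 and 0.225). Loss and control libraries overlapped for MCM3, MCM5 and MCM7. MCM2 was at 474, 437, 453 and 453 CPM in WT and TK+ and 346, 352, 393, 376, 365 and 383 in the loss libraries, with no overlap (log2 change -0.30, SE 0.0532, adjusted p = 0.00517). MCM4 went from 534 ± 26.6 to 437 ± 26.6 CPM (mean ± SD, n = 4 and 6; log2 change -0.29, SE 0.0608, adjusted p = 0.012) and MCM6 from a mean of 276 to 230 CPM (log2 change -0.27, SE 0.0531, adjusted p = 0.00923). RRM1, a subunit of ribonucleotide reductase, fell by 0.28 on the log2 scale (adjusted p = 0.0112) and GINS2, part of the active helicase, by 0.20 (73.0 ± 2.38 to 63.4 ± 4.02 CPM, adjusted p = 0.0431). The GINS2 call was lost in 14 of 22 alternative fits (adjusted p up to 0.283) and the CDT1 call in 7 of 22 (up to 0.192). GINS2 overlaps GSE1, a gene of the opposite strand with 220 CPM in A2780 WT, and whether the counting used the strand is not given in the sources used here.

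Both transcription factors among the members fell as well. E2F1 was at 71.4 and 62.2 CPM in WT, 68.6 and 65.9 in TK+ and 51.0, 54.6, 54.2, 57.7, 55.9 and 60.3 in the loss libraries of A2780, all below the controls (log2 change -0.27, SE 0.0603, adjusted p = 0.0159). FOXM1 was at 162 and 157 CPM in WT, 145 and 153 in TK+ and 113 to 139 in the loss libraries (log2 change -0.29, SE 0.0612, adjusted p = 0.0128). KIF11, the kinesin that separates spindle poles, fell by 0.24 on the log2 scale (234 ± 4.99 to 198 ± 11.2 CPM, adjusted p = 0.0147). MKI67, the gene of the proliferation marker Ki-67, went from a mean of 782 to 629 CPM with overlapping libraries (log2 change -0.31, adjusted p = 0.104, and 0.0481 to 0.295 over 22 alternatives). CCNB1, the mitotic cyclin B1, was at 219 ± 6.58 and 217 ± 3.69 CPM (adjusted p = 0.879).

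**Figure D3:**
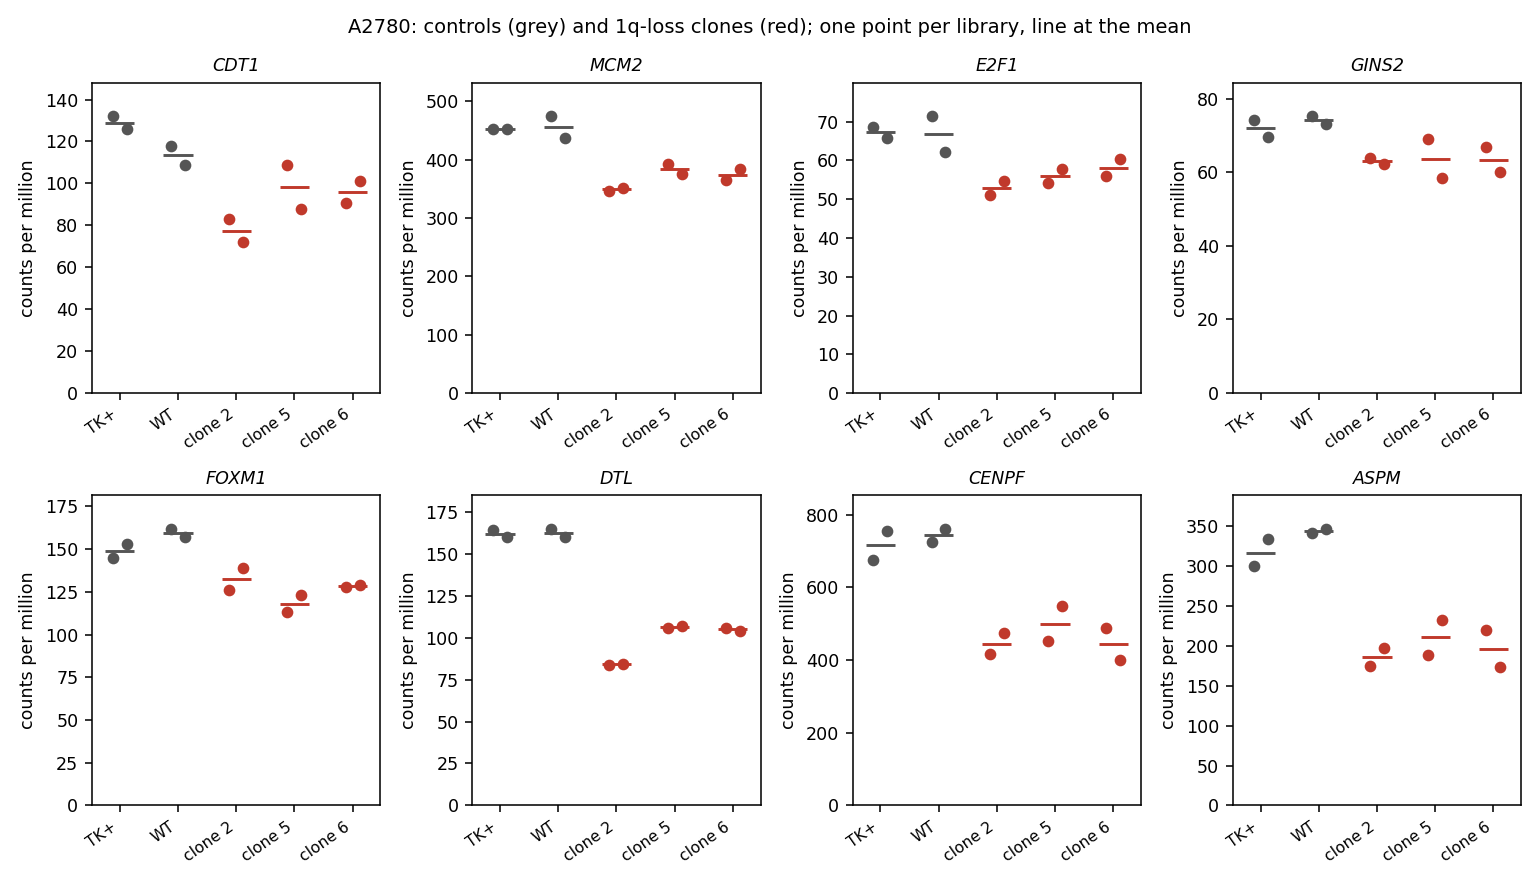
CPM in each A2780 library of CDT1, MCM2, E2F1, GINS2, FOXM1 and, on 1q, DTL, CENPF and ASPM; grey points are TK+ and WT controls, red points loss clones 2, 5 and 6, and short lines group means, with vertical axes from 0. For MCM2 the loss libraries lie at 346 to 393 and the controls at 437 to 474, and for DTL at 83.7 to 107 and 160 to 165.

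Among other genes of the same processes in A2780, most were not called, and those called were mostly lower. Of all tested genes outside 1q, 3.96% were called lower and 6.08% higher. Of 50 other replication genes tested outside 1q, 11 were called lower and 0 higher (median -0.17), among them POLD3 (-0.42, adjusted p = 0.00699), a DNA polymerase subunit, and CHAF1B (-0.42, adjusted p = 0.00741), a subunit of chromatin assembly factor 1. Of 55 other mitosis genes 11 were called lower and 0 higher (median -0.12), with ESPL1, the protease that cleaves cohesin, at 160 ± 10.6 and 107 ± 4.00 CPM (mean ± SD, n = 4 and 6; log2 change -0.59, adjusted p = 0.000126) and SPC24 at -0.39 (adjusted p = 0.00821). Of 32 cell cycle regulators, 8 were lower and 2 higher, among them E2F8 (-0.65, adjusted p = 0.0316) and E2F2 (-0.45, adjusted p = 0.0156) below and MYBL1 (0.53, adjusted p = 0.0286) and CDKN1A above. The calls of E2F8 and MYBL1 were lost in 10 and 7 of 22 alternative fits, with adjusted p up to 0.405 and 0.211. The pooled controls differed among themselves in E2F8 and E2F2. Scaled in the comparison of TK+ with WT, E2F8 was at 14.4 and 14.0 CPM in WT but 8.61 and 8.58 in TK+. E2F2 was at 57.9 and 53.3 CPM in WT but 72.1 and 78.9 in TK+. CDKN1A, the p21 inhibitor of cyclin-dependent kinases, was at 32.4 and 32.8 CPM in WT, 24.1 and 20.2 in TK+, 165 and 149 in clone 2, 51.6 and 43.5 in clone 5 and 73.4 and 72.7 in clone 6 (log2 change 1.76, SE 0.39, adjusted p = 0.0152). The replication medians outside 1q were -0.34, -0.15 and -0.20 in clones 2, 5 and 6.

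The count of members called in A2780 depended on the controls. With WT controls only, 4 of the 37 were called, all lower, where 2.92% of all genes outside 1q were called lower. With TK+ controls only 0 were called (10 at an unadjusted p under 0.05), where 1.16% of those genes were called lower. The median change stood at -0.16 and -0.13. Without clone 5, 15 of the 37 were called, all lower (5.97% of all genes outside 1q were called higher and 3.95% lower). Summing each clone's libraries gave 4, where 1.10% of all genes outside 1q were called lower. In the TK+ libraries themselves, compared with WT, 0 of the 44 members were called by edgeR (2 at an unadjusted p under 0.05) or by DESeq2, where edgeR called 5.16% of 14888 genes higher and 6.05% lower and DESeq2 8.56% in all. Member changes there ran from -0.15 (CKS1B) to 0.18 (MCM5), with a median of -0.0052, and MCM2, E2F1, FOXM1, CCNB1 and MKI67 differed by -0.0075, 0.0098, -0.10, -0.059 and 0.022. Leaving out TK+ replicate 1 gave 5 member calls, where 9.56% of all genes were called higher and 11.5% lower. Leaving out replicate 2 gave 6, where 9.34% were called higher and 9.66% lower. In both fits 1 TK+ library is assumed to vary like the WT pair. CDKN1A was lower in TK+ (-0.55, adjusted p = 0.00538), as were E2F8 (-0.72, adjusted p = 0.00318), ORC4 (-0.74, adjusted p = 7.67e-05) and DBF4 (-0.41, adjusted p = 0.00994), while E2F2 (0.44), CDC25B (0.38), CCNG2 (0.48) and CDC25C (0.52) were higher (adjusted p = 0.00548, 0.00757, 0.0105 and 0.0483). No clone is named for the TK+ libraries of A2780, and effects of the integrant and of picking a clone cannot be told apart.

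In A2058 1q-loss, members outside 1q moved both ways. Of 37, 5 were called higher (13.5%) and 4 lower (10.8%), where 26.0% of all genes outside 1q were called higher and 22.7% lower, a higher share in both directions. RRM2, the regulated subunit of ribonucleotide reductase, was at 118, 129, 111 and 149 CPM in WT and 175, 198, 192 and 172 in the loss libraries, all above WT (log2 change 0.54, SE 0.0939, adjusted p = 0.000786). ANLN, a scaffold of the contractile ring, was at 462, 431, 375 and 351 CPM in WT and 546, 515, 707 and 535 in the loss libraries, again without overlap (log2 change 0.51, SE 0.118, adjusted p = 0.00456). KIF23, a kinesin of the midzone, rose by 0.38 (adjusted p = 0.0109), NDC80 by 0.33 (adjusted p = 0.0342) and TOP2A, the decatenating topoisomerase, by 0.32 (537 ± 80.5 to 672 ± 93.1 CPM, mean ± SD, n = 4 and 4; adjusted p = 0.0465), each with overlapping libraries. The NDC80 call was lost in 7 of 19 alternative fits (adjusted p up to 0.266).

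On the other side, E2F1 was at 59.6, 63.4, 69.3 and 82.3 CPM in A2058 WT and 40.4, 55.6, 47.0 and 57.5 in the 1q-loss libraries, all below WT (log2 change -0.45, SE 0.129, adjusted p = 0.014). GINS2 went from 49.7 ± 6.27 to 38.2 ± 4.20 CPM, with 1 loss library just above the lowest WT library (mean ± SD, n = 4 and 4; log2 change -0.38, SE 0.107, adjusted p = 0.013). CKS2, a partner of CDK1, fell from 84.8 ± 12.4 to 65.9 ± 4.94 CPM (mean ± SD, n = 4 and 4; log2 change -0.36, adjusted p = 0.0135), and TYMS, thymidylate synthase, from 98.6 ± 4.82 to 86.1 ± 2.79 CPM (log2 change -0.20, adjusted p = 0.0182). The TYMS call was lost in 7 of 19 alternative fits (adjusted p up to 0.132), and TYMS overlaps ENOSF1 on the opposite strand. MKI67 (-0.0083), CCNB1 (-0.065), FOXM1 (-0.17), CDT1 (-0.21) and MCM2 (-0.12) were not called (adjusted p = 0.972, 0.778, 0.202, 0.137 and 0.298), and their libraries overlapped WT. CCNB1, FOXM1 and CDT1 were called in 1, 1 and 2 of the 19 alternative fits, with adjusted p down to 0.00636, 0.0434 and 0.0191. Without A2058 1q-loss clone 2, 5 of the 37 were called, where 21.3% of all genes outside 1q were called higher and 18.9% lower.

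**Figure D4:**
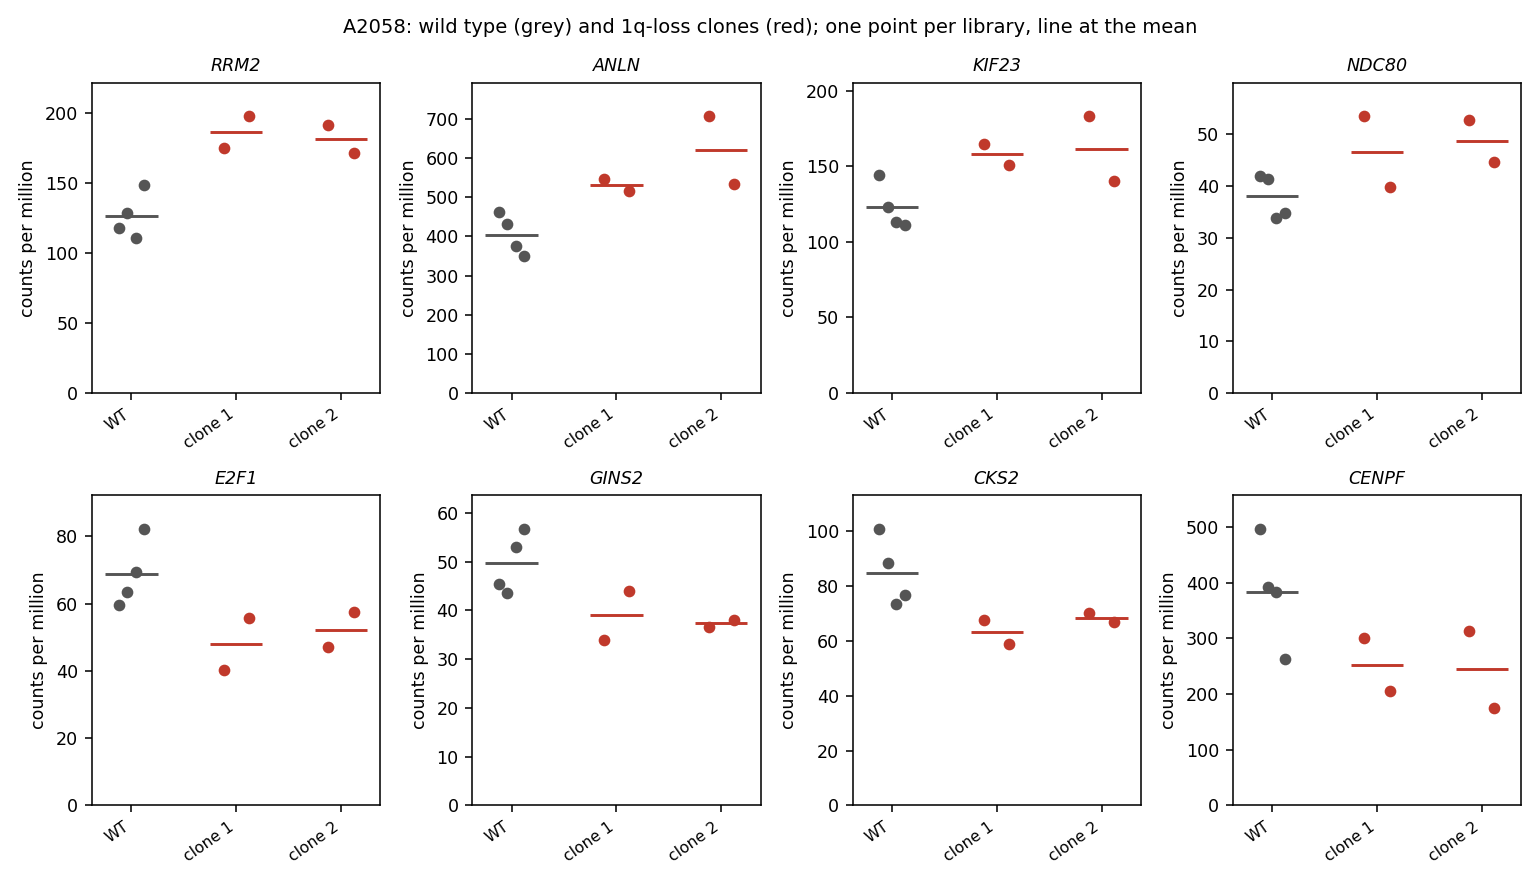
CPM in each A2058 WT (grey) and 1q-loss (red, clones 1 and 2) library of RRM2, ANLN, KIF23, NDC80, E2F1, GINS2, CKS2 and CENPF; points are libraries, short lines group means, and vertical axes start at 0. RRM2 lies at 172 to 198 after loss and 111 to 149 in WT, and E2F1 at 40.4 to 57.5 and 59.6 to 82.3.

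Other cell cycle genes in A2058 1q-loss were called in both directions, as were genes of all kinds (26.0% of those outside 1q higher and 22.7% lower). Of 50 other replication genes 10 were called higher and 9 lower, with PRIM1 (0.68, adjusted p = 0.000202) and PRIM2 (0.55, adjusted p = 0.000579), the primase subunits, above and CHAF1B (-0.72, adjusted p = 2.75e-05) and LIG1 (-0.43, adjusted p = 0.000181), a DNA ligase, below. Of 55 other mitosis genes 7 were higher and 12 lower, with the kinesins KIF18A (0.49, adjusted p = 0.00392) and KIF20B (0.46, adjusted p = 0.0172) above and CIT (-0.63, adjusted p = 0.000917) and ESPL1 (-0.58, adjusted p = 0.000441) below. Of 33 regulators 6 were higher and 13 lower. CDK2, a kinase of the S phase, fell from 365 ± 26.6 to 92.0 ± 17.6 CPM (mean ± SD, n = 4 and 4; log2 change -1.99, adjusted p = 8.46e-07) and CDKN1C, a cyclin-dependent kinase inhibitor, from 132 ± 20.8 to 10.9 ± 5.18 CPM (log2 change -3.62, adjusted p = 4.48e-06). In MCF10A WT CDK2 was at 70.8 and 79.0 CPM and in HCT116 WT at 56.0 and 65.6. Overlaps with other genes were looked up for the members only, and their part in the CDK2 counts was not tested. CDKN1A rose from 17.4 ± 7.40 to 75.1 ± 27.8 CPM (log2 change 2.10, adjusted p = 0.000298) and CCNG2 by 1.66 (adjusted p = 0.000127). In these libraries melanoma markers (48.5 to 250 CPM in sum) lay below WT, and basal breast markers (54.3 to 266) and fibroblast markers (134 to 264) above it. Their part in each A2058 1q-loss result was not tested. The identity of the clones with the WT line was not tested either.

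E2F1 and GINS2 were the members called in the same direction outside the lost arm in the most comparisons, lower in A2058 1q-loss and A2780 1q-loss, which share no library. Of all genes outside 1q, 22.7% and 3.96% were called lower in these comparisons. How many were called lower in both was not counted, so this ranking only orders the members. For GINS2 this count rests on an A2780 call lost in 14 of 22 alternative fits and an A2058 call lost in 3 of 19, and for E2F1 the calls were lost in 4 of 22 and 1 of 19. Members called in 1 comparison were ordered by the size of their log2 change, which put RRM2, ANLN and CDT1 first among them. The 250 bases before the RefSeq start site (GRCh38.p14) are given for the first-ranked pair of replication members and of mitosis members in that order, to show the promoter words of the S and the G2 genes side by side. Capitals mark 3 motifs, searched on both strands: the E2F core (TTTGGCG, read also as TTTCCCG, then as TTTCGCG and then as TTTGCCG), the CCAAT box (CCAAT) and the cell cycle homology region (CHR, TTTGAA); where matches of E2F words overlap, the capitals run together.
E2F1 (chr20:33686386-33686635, minus strand): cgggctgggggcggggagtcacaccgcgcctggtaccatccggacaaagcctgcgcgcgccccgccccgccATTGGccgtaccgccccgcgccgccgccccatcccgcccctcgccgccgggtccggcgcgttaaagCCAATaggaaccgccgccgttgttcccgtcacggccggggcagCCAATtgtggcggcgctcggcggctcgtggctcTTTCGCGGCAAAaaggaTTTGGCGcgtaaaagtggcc
GINS2 (chr16:85688955-85689204, minus strand): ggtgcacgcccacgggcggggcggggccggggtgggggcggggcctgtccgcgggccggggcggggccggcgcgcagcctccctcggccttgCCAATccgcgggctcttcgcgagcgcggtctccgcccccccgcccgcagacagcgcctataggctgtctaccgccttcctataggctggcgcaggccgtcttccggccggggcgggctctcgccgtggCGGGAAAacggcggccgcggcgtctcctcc
ANLN (chr7:36389612-36389861, plus strand): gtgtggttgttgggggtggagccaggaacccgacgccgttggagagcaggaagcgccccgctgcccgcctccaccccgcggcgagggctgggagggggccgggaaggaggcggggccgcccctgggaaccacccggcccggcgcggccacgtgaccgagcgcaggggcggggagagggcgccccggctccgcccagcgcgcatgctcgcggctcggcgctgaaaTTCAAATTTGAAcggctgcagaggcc
KIF23 (chr15:69414099-69414348, plus strand): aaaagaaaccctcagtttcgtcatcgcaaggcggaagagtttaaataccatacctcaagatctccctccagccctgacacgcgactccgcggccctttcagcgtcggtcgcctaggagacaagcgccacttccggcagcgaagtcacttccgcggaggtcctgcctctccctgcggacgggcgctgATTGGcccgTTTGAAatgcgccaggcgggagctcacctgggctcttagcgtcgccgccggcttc

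E2F1 holds E2F words at -37, -32 and -20 and CCAAT boxes at -179, -113 and -70 from its start, and GINS2 1 E2F word at -30 and 1 CCAAT box at -158, with no CHR in either window. ANLN has 2 adjoining CHR matches at -26 and -20 and no other match, and KIF23 has a CHR at -55 beside a CCAAT box at -64. RefSeq promoter entries (250 bases before to 50 after the start) matched 37 of the 44 members, with 43 entries. An E2F word was in 70.6% of the 17 replication entries, 23.1% of the 26 mitosis entries and 8.67% of all 35116 entries. A CHR was in 5.88%, 69.2% and 15.2%, and a CCAAT box in 82.4%, 80.8% and 34.6%. A match is a string of letters, and binding was not measured.

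In AGS 1q-loss the 5 clones fell far apart in these genes. Members outside 1q had a median of 0.49 (141% of control), with 35 of 37 above 0, beside a median of 0.020 over all genes outside 1q. By the test 0 of 37 were called by edgeR (7 at an unadjusted p under 0.05, all higher), where 3.46% of all genes outside 1q were called higher and 2.88% lower. DESeq2 called 2, and 13.4% of all genes outside 1q. In clones 1 and 4 the median replication member stood 0.93 and 0.90 above the controls and the median mitosis member 1.06 and 1.04, with all 37 members above 0. In clones 6, 7 and 11 the replication medians were 0.058, 0.11 and -0.051 and the mitosis medians -0.078, -0.066 and -0.25, within or near the control libraries, which ran from -0.082 to 0.18 and from -0.12 to 0.21. The 4 fibroblast markers summed to 372 and 94.1 CPM in clones 1 and 4, 47.3, 49.7 and 119 in clones 6, 7 and 11 and 37.9 to 130 in the controls. Gastrointestinal markers summed to 7717 and 8325 CPM in clones 1 and 4, 6255 to 7250 in the other three and at most 5362 in the controls. The part of these markers in the result was not tested.

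Single genes in AGS show this spread. KIF23 was at 56.2 CPM in WT, 58.5 and 59.3 in TK+, 200 and 177 in clones 1 and 4 and 57.7, 65.8 and 86.0 in clones 6, 7 and 11 (log2 change 1.02, SE 0.414, adjusted p = 0.161), the highest change of a member in this line. MCM2 was at 25.4, 19.9 and 29.7 CPM in the controls, 68.3 and 68.4 in clones 1 and 4 and 31.5, 27.3 and 24.3 in the others (log2 change 0.81, SE 0.383, adjusted p = 0.216). CCNB1 was at 68.2, 96.1 and 65.1 CPM in the controls, 170 and 171 in clones 1 and 4 and 75.4 to 89.8 in the others (log2 change 0.63, SE 0.31, adjusted p = 0.232). MKI67 (0.05, adjusted p = 0.935), FOXM1 (-0.02, adjusted p = 0.976) and E2F1 (-0.06, adjusted p = 0.859) had changes near 0 over the group. GINS2, ANLN, CDT1 and RRM2 had changes of 0.49, 0.75, 0.37 and 0.042 (adjusted p = 0.346, 0.28, 0.441 and 0.89). Of the other lists, 0 of 50 replication genes (median 0.29, 11 at an unadjusted p under 0.05) and 0 of 55 mitosis genes (median 0.31, 1 at an unadjusted p under 0.05) were called. Of 33 regulators only CDKN1B, the p27 inhibitor, was called, lower at 92.7 ± 11.9 CPM against 138 ± 15.3 (mean ± SD, n = 5 and 3; log2 change -0.58, adjusted p = 0.0298, a call lost in 8 of 14 alternative fits with adjusted p up to 0.139), and CDKN1A was not (-0.25, adjusted p = 0.377). Mitochondrial genes took 5.31% and 5.55% of counts in clones 1 and 4, 7.14% to 9.15% in clones 6, 7 and 11 and 5.18% to 6.42% in the controls, and the part of this in the result was not tested. Each clone has 1 library and clone 11 is the only one made by CO.

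**Figure D5:**
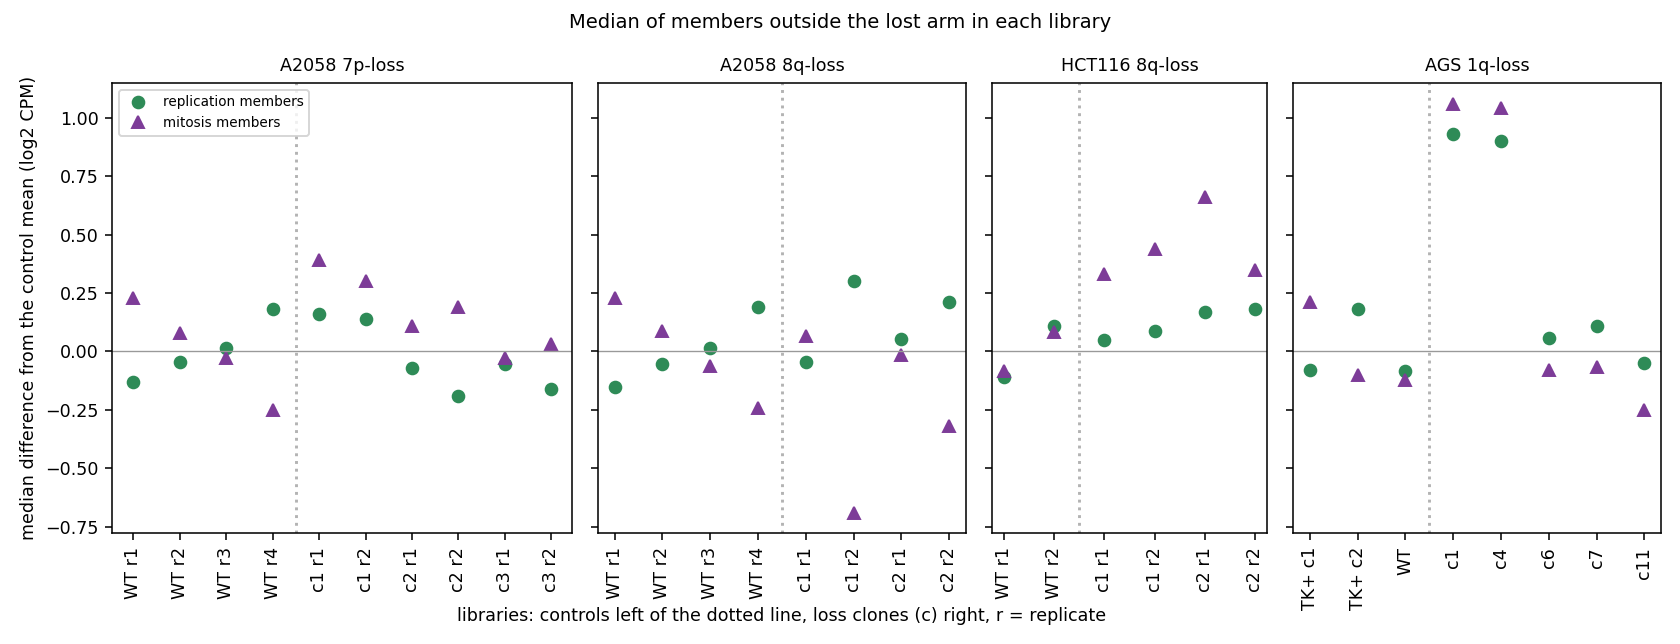
Median difference from the control mean (log2 CPM, vertical axis) of replication members (circles) and mitosis members (triangles) outside the lost arm in every library of 4 comparisons, controls left of the dotted line. AGS clones 1 and 4 lie at 0.90 to 1.06, and HCT116 mitosis medians at 0.33 to 0.66 in the loss libraries lie above both WT libraries.

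In HCT116 8q-loss replication and mitosis members had different medians, without a call. The medians were 0.50 over 29 mitosis members (27 above 0) and 0.15 over 14 replication members outside 8q, and per library the mitosis median was 0.33 to 0.66 after loss and -0.085 to 0.085 in WT. Of the 43 members outside 8q 0 were called by edgeR (7 at an unadjusted p under 0.05, all higher) and DESeq2 called 0, where edgeR called 0.0261% of all genes outside 8q higher and 0.117% lower and DESeq2 0.718% in all.

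CENPF was at 14.3 and 15.1 CPM in HCT116 WT, 21.5 and 24.6 in clone 1 and 55.2 and 49.8 in clone 2, all above WT (log2 change 1.36, SE 0.426, adjusted p = 0.581), the highest member change in this line. MKI67 was at 51.6 and 73.7 CPM in WT, 73.2 and 66.8 in clone 1 and 178 and 189 in clone 2 (log2 change 1.02, SE 0.45, adjusted p = 0.893). ANLN was at 19.9 and 43.6 CPM in WT and 57.8 to 66.5 after loss (log2 change 0.97, adjusted p = 0.653), and CCNB1 at 277 and 236 in WT, 384 and 460 in clone 1 and 283 and 256 in clone 2 (log2 change 0.43, adjusted p = 1). RRM2 (0.46), GINS2 (0.27), FOXM1 (0.24), CDT1 (0.22), MCM2 (0.13) and E2F1 (-0.19) had adjusted p of 1. MCM4, on the lost 8q, was at 89.6 and 140 CPM in WT, 78.4 and 109 in clone 1 and 151 and 132 in clone 2 (log2 change 0.032, SE 0.317, adjusted p = 1), while the 328 tested genes of 8q had a median of -0.57 and 0% of them were called lower. The median change was 0.14 over 2755 protein-coding genes longer than 8 kb and -0.090 over 1158 of up to 2 kb. CENPF and MKI67 are among the long genes, and the part of length in these values was not tested. CDKN1A fell from 708 and 501 CPM to 92.7 and 83.9 in clone 1 and 39.1 and 36.2 in clone 2 (log2 change -3.26, SE 0.385, adjusted p = 0.00605, up to 0.121 over 15 alternatives), and was the only one of 32 regulators called. Of 50 other replication genes (median 0.20) and 55 other mitosis genes (median 0.34) 0 were called by edgeR, with 1 and 4 at an unadjusted p under 0.05.

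In A2058 8q-loss 0 of the 43 members outside 8q were called by edgeR (7 at an unadjusted p under 0.05), where 0.554% of all genes outside 8q were called higher and 0.642% lower. DESeq2 called 2 of the 43, 1 in each direction, and 3.41% of all genes outside 8q. The log2 changes of the 29 mitosis members lay between -0.53 and -0.065 (median -0.24), and 13 of 14 replication members had values above 0 (median 0.092). For both lists the library medians overlapped WT. The 4 fibroblast markers summed to 66.5 to 82.9 CPM after loss and 35.7 to 45.7 in WT, and their part in these values was not tested. CKS2 was at 102, 89.6, 74.6 and 77.7 CPM in WT, 50.6 and 53.1 in clone 1 and 66.2 and 67.7 in clone 2, all below WT (log2 change -0.53, SE 0.132, adjusted p = 0.0819). MCM2 was at 92.1, 103, 112 and 115 CPM in WT and 121, 145, 129 and 133 after loss, all above WT (log2 change 0.32, SE 0.0908, adjusted p = 0.133, and 0.0394 to 0.932 over 19 alternatives).

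Libraries of 1 group also spread widely in A2058. The mitosis median ran from -0.24 to 0.23 over the WT libraries and from -0.69 to 0.065 over the 8q-loss libraries, the replication median from -0.15 to 0.19 and from -0.043 to 0.30, and CCNB1 was at 267, 210, 202 and 144 CPM in WT, 187 and 89.3 in clone 1 and 196 and 125 in clone 2 (log2 change -0.46, SE 0.251, adjusted p = 0.479). The second library of each 8q-loss clone, lowest in mitosis members, had 4.12% and 3.71% of its counts in mitochondrial genes and the first 2.49% and 2.19%. WT replicates 1 to 4 had 3.47%, 3.82%, 2.52% and 4.12%, so such a spread was also present in WT. The part of this in the result was not tested. MCM4 on 8q was at 450, 480, 483 and 545 CPM in WT and 364, 390, 350 and 361 after loss and was called (log2 change -0.42, SE 0.0791, adjusted p = 0.0265), beside a median of -0.53 over the 342 tested genes of 8q. Of those genes 38.3% were called lower. The MCM4 call was lost in 11 of 19 alternative fits, with adjusted p up to 0.204. MKI67 (-0.065), FOXM1 (-0.21), E2F1 (0.071), GINS2 (0.15), RRM2 (0.043), ANLN (-0.080), CDT1 (0.11) and CDKN1A (0.74) were not called (adjusted p = 0.33 to 0.907), and neither were any of 50 other replication genes, 55 other mitosis genes and 32 regulators by edgeR (3, 9 and 6 at an unadjusted p under 0.05).

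In A2058 7p-loss 0 of the 43 members outside 7p were called by edgeR (4 at an unadjusted p under 0.05, all higher) and DESeq2 called 1, where edgeR called 0.106% of all genes outside 7p higher and 0.352% lower and DESeq2 2.76% in all. The mitosis median was 0.15 (25 of 28 above 0) and the replication median -0.073 (10 of 15 below 0). Clones differed, with mitosis medians of 0.36, 0.15 and 0.0026 and replication medians of 0.15, -0.14 and -0.080 in clones 1, 2 and 3. The 6 melanoma markers summed to 1213 to 4550 CPM after loss and 2497 to 4426 in WT. The 4 fibroblast markers summed to 7.98 to 38.6 CPM after loss and 35.7 to 45.7 in WT. The part of these markers in the 7p-loss values was not tested. CENPE was at 123, 103, 86.2 and 58.8 CPM in WT, 170 and 160 in clone 1, 103 and 127 in clone 2 and 88.5 and 99.1 in clone 3 (log2 change 0.43, SE 0.235, adjusted p = 0.474). MCM2 was at 91.0 to 113 CPM in WT, 44.7 and 43.9 in clone 1 and 91.1 to 123 in clones 2 and 3 (log2 change -0.30, SE 0.28, adjusted p = 0.686). ANLN, on the lost 7p, was at 463, 433, 379 and 351 CPM in WT, 475 and 414 in clone 1, 325 and 378 in clone 2 and 250 and 260 in clone 3 (log2 change -0.22, SE 0.179, adjusted p = 0.644), beside a median of -0.51 over the 252 tested genes of 7p. Of those genes 27.8% were called lower. MKI67 (0.30), CCNB1 (0.13), RRM2 (0.23), FOXM1 (0.0076), E2F1 (-0.073), GINS2 (-0.083), CDT1 (-0.14) and CDKN1A (0.44) were not called (adjusted p = 0.373 to 0.977), and neither were any of 49 other replication genes, 55 other mitosis genes and 35 regulators by edgeR (3, 5 and 2 at an unadjusted p under 0.05).

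In MCF10A 1q-loss 0 of the 37 members outside 1q were called by edgeR (4 at an unadjusted p under 0.05, all lower), and DESeq2 called 2. Of all genes outside 1q, edgeR called 0.314% higher and 0.174% lower and DESeq2 1.78% in all. The medians were -0.16 for both replication and mitosis members, with 35 of 37 below 0. Clone 4 was lowest, with medians of -0.55 and -0.43, against 0.059 and -0.022 in clone 1, -0.18 and -0.14 in clone 2 and -0.080 and -0.077 in clone 3. The 6 basal markers summed to 14411 and 13715 CPM in clone 4, 7966 to 10977 in clones 1 to 3 and 9081 and 9706 in WT, and their part in the result was not tested. MCM2 was at 161 and 149 CPM in WT, 170 and 158 in clone 1, 127 and 130 in clone 2, 149 and 147 in clone 3 and 104 and 89.3 in clone 4 (log2 change -0.21, SE 0.185, adjusted p = 0.72). UBE2C, the ubiquitin-conjugating partner of the anaphase-promoting complex, was at 96.7 and 103 CPM in WT and 62.0 to 85.5 after loss (log2 change -0.42, SE 0.118, adjusted p = 0.117), the lowest member change outside 1q. PCNA, the sliding clamp of the polymerases, was at 260 and 251 CPM in WT, 223 and 232 in clone 4 and 273 to 322 in clones 1 to 3 (log2 change 0.13, adjusted p = 0.752). CDKN1A was at 198 and 157 CPM in WT, 237 and 179 in clone 1, 350 and 403 in clone 2, 329 and 291 in clone 3 and 566 and 518 in clone 4 (log2 change 1.02, SE 0.347, adjusted p = 0.222; 0.0254 to 0.784 over 21 alternatives). Clone 4, highest in CDKN1A and lowest in the members, is also the only MCF10A clone made by CO, and the version and the clone cannot be told apart. MKI67 (-0.053), CCNB1 (-0.082), FOXM1 (-0.18), E2F1 (-0.17), GINS2 (-0.16), RRM2 (-0.12), CDT1 (-0.11) and ANLN (-0.10) were not called (adjusted p = 0.717 to 0.934), and neither were any of 50 other replication genes, 55 other mitosis genes and 33 regulators by edgeR (3, 8 and 8 at an unadjusted p under 0.05).

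With hRas, clone 4 was again lowest. In MCF10A hRas 1q-loss the replication median outside 1q was -0.42 and the mitosis median -0.21, with 34 of 37 members below 0 and 0 called by edgeR (3 at an unadjusted p under 0.05, all lower) or DESeq2, where edgeR called 0.0264% of all genes outside 1q higher and 0.0330% lower and DESeq2 1.94% in all. Replication medians were -0.049, -0.57, -0.25 and -0.97 in clones 1 to 4 and mitosis medians 0.039, -0.29, -0.11 and -0.50. Mitochondrial genes took 2.98% and 3.07% of counts in clone 2 and 2.88% and 3.12% in clone 4, but 1.25% to 1.64% in clones 1 and 3 and 1.32% and 1.70% in hRas WT. The 4 fibroblast markers summed to 266 and 286 CPM in clone 2, 96.5 and 88.0 in clone 4, 14.0 to 40.4 in clones 1 and 3 and 26.0 and 26.7 in hRas WT, and the basal markers were low in clone 2. Without clone 2 the median over the 37 members was -0.25, as with it, and 0 members were called outside 1q and 0 on it (3 and 7 at an unadjusted p under 0.05). Without it 0.0203% of all genes outside 1q and 0.426% of those on it were called lower. The part of the mitochondrial share and of these markers in the result was not otherwise tested. MCM2 was at 174 and 184 CPM in hRas WT, 164 and 160 in clone 1, 91.2 and 90.2 in clone 2, 131 and 145 in clone 3 and 69.0 and 68.4 in clone 4, below WT in every library (log2 change -0.64, SE 0.319, adjusted p = 0.381). CCNA2, the cyclin of S and G2, was at 237 and 241 CPM in WT, 223 and 218 in clone 1, 136 and 155 in clone 2, 209 and 200 in clone 3 and 121 and 122 in clone 4, the lowest mitosis member change outside 1q (-0.46). CDKN1A was at 183 and 183 CPM in WT, 260 and 265 in clone 1, 532 and 514 in clone 2, 368 and 369 in clone 3 and 580 and 612 in clone 4, above WT in every library (log2 change 1.26, SE 0.342, adjusted p = 0.188, and 0.00837 to 0.878 over 21 alternatives). MKI67 (-0.33), CCNB1 (-0.29), FOXM1 (-0.25), E2F1 (-0.17), GINS2 (-0.50), RRM2 (-0.36), CDT1 (-0.43) and ANLN (-0.26) were not called (adjusted p = 0.303 to 0.701), and neither were any genes of the same lists by edgeR (15, 10 and 13 at an unadjusted p under 0.05).

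The test of whether the change with 1q loss differs with hRas, an interaction over the 20 MCF10A libraries, called 0% of genes outside 1q higher and 0% lower and 0 of the 44 members, of which 0 had an unadjusted p under 0.05 and DESeq2 called 0. MCM2 had an interaction of -0.44 (SE 0.413), DTL of -0.33 (SE 0.334) and MKI67 of -0.28 (SE 0.228), each with an adjusted p of 0.999.

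hRas was also compared in cells that keep the gain. In MCF10A hRas WT against WT the log2 changes of all 15 replication members were above 0 (median 0.20, highest 0.31 in DTL) and the mitosis median was -0.0068. Both hRas libraries lay above both WT libraries for 13 of the 15, and for 22.2% of all 14646 genes tested. None of the 44 members was called by edgeR (15 at an unadjusted p under 0.05), and DESeq2 called 1. Of all genes, edgeR called 0.703% higher and 0.915% lower and DESeq2 2.06% in all. DTL was at 131 and 130 CPM in WT and 153 and 171 with hRas (SE 0.0782, adjusted p = 0.0758), MCM2 at 161 and 149 and at 178 and 188 (log2 change 0.24, SE 0.0754, adjusted p = 0.155), and AURKB, the Aurora kinase of the centromere, at 65.9 and 72.0 and at 59.2 and 52.9 (log2 change -0.30, SE 0.0932, adjusted p = 0.155). CCNB1 (0.20), MKI67 (0.16), E2F1 (0.13) and FOXM1 (0.073) were not called (adjusted p = 0.222, 0.447, 0.586 and 0.78). Of the other lists, MCM10, an origin-firing factor, rose by 0.35 (adjusted p = 0.0473) and CCNG2 fell by 0.71 (adjusted p = 0.00449), calls lost in 4 and 3 of 9 alternative fits.

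In the 1q-loss clones, hRas libraries against libraries without hRas gave 0 of 44 members called by edgeR (4 at an unadjusted p under 0.05) and by DESeq2, where edgeR called 0.795% of all genes higher and 0.405% lower and DESeq2 5.57% in all, with medians of -0.080 (replication) and -0.055 (mitosis). Taken against the libraries without hRas of the same clone number, the replication medians were 0.080, -0.27, -0.0026 and -0.27 in clones 1 to 4 and the mitosis medians 0.018, -0.15, -0.031 and -0.11. With the clone number as a block, 8 of the 44 members were called, 2 higher and 6 lower. In that fit 8.03% of all genes were called higher and 7.04% lower. MCM2 (-0.19), MKI67 (-0.12), E2F1 (0.13), FOXM1 (0.0019), CCNB1 (-0.0065) and CDKN1A (0.32) were not called in the comparison without the block (adjusted p = 0.483 to 0.995). MCM2 and CDKN1A were each called in 1 of 27 alternative fits, with adjusted p down to 0.0280 and 0.00510.

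Some single genes can be followed across the 8 loss comparisons, of which most called few genes of any kind outside the lost arm. MKI67 and CCNB1 were called in 0 of 8, with changes of -0.33 to 1.02 and of -0.46 to 0.63. MCM2 was called in 1 (lower in A2780; -0.64 to 0.81), FOXM1 in 1 (lower in A2780; -0.29 to 0.24) and E2F1 in 2 (lower in A2058 1q-loss and A2780; -0.45 to 0.071). CDKN1A was called higher in 2 (A2058 1q-loss and A2780) and lower in 1 (HCT116), between -3.26 and 2.10. These counts go with how many genes a comparison called. Outside 1q, 26.0% of all genes were called higher and 22.7% lower in A2058 1q-loss, and 6.08% and 3.96% in A2780. In HCT116 0.117% of all genes outside 8q were called lower.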

How the data were processed

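The members and gene lists were chosen with earlier results of these data known. Libraries were grouped by line, genotype and hRas status as the labels give them. The deposited tables hold raw counts per gene, 1 table per library, with names, positions and lengths; per the file headers and values, positions are GRCh38, and GRCh37 in A2780. Reads were aligned with HISAT2 2.0.5 and counted with featureCounts 1.5.0-p3 on hg38, per the submitters' processing notes, which do not say how the A2780 tables came to GRCh37; the strand setting is not given in the sources used here. The authors' gene length served only for levels per kilobase and length classes.

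Each comparison was fitted on its own libraries with edgeR 4.0.16 (filterByExpr with minimum count 10 and minimum total 15, TMM, glmQLFit, glmQLFTest; limma 3.58.1, R 4.3.3). The Benjamini-Hochberg adjustment covered all genes tested; all 44 members passed the filter in every comparison. SEs were derived from the log2 fold change and its F statistic. CPM of single genes in a comparison are TMM-scaled within it, so a library's CPM differs slightly between comparisons. Marker sums, LYZ, levels per kilobase and the CPM of overlapping genes and processed copies use each library's total count, without TMM. Differences per library and clone are of log2 CPM (prior count 2) from the control mean. The library is the unit; libraries of a clone are not independent. Scripts were tested on simulated data. Python 3.11.15, numpy 2.4.6, pandas 2.3.3 and scipy 1.17.1 were used.

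Named genes follow a rule: members on the lost arm; up to 4 called members in each direction with 1 direction in every clone; MKI67, MCM2, E2F1, FOXM1, CCNB1 and CDKN1A; the 5 members called most often; the 3 highest and lowest by level; and called genes of the other lists (all if at most 4, otherwise 2 in each direction). KIF23 in AGS, CENPF in HCT116, CKS2 in A2058 8q-loss, CENPE in 7p-loss, UBE2C, PCNA, CCNA2, AURKB, DTL in hRas WT, TOP2A in A2058 1q-loss and, in A2780, MCM6, RRM1 and KIF11 were chosen after their values were seen. Replicate numbers were not used as pairs in the main fits. Correlations of deviations between same-numbered libraries ran from -0.18 to 0.49 and not all were over 0.1 in any comparison of 3 or more pairs. Only libraries numbered 1 and 2 entered these correlations, so A2058 WT replicates 3 and 4 did not. Alternatives were DESeq2 1.42.0, RLE, other filters, summed clones, each clone or replicate left out, control subsets and blocks. The raw reads were not used here.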

Additional observations from a re-analysis of the deposited data

Results flagged for a closer look

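Of 163 sets of libraries of 1 group and 1 named member, 2 held a library far from the rest by Dixon's test, which flags about 1 in 20 by chance. ANLN was at 707 CPM in A2058 1q-loss clone 2 replicate 1 and at 515 to 546 in the other 3 libraries. KIF14 was at 52.6 CPM in MCF10A 1q-loss clone 4 replicate 1 and at 75.7 to 94.4 in the other 7.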

How the results depend on the processing

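Counts of called members changed with the processing as follows, with the count above in brackets, and the cause was not tested. The share of all genes called is given above for some of these fits only. Where it is not given, a count is not read as a result about the members. In A2058 1q-loss, leaving out clone 2 gave 5 outside 1q (9) and 1 on 1q (3), and using WT replicates 3 and 4 only gave 1 on 1q. In 7p-loss DESeq2 and the fit without clone 2 each gave 1 (0). In A2058 8q-loss outside the arm (0), DESeq2 gave 2, no filter 1 and no clone 2 gave 3, while the call of MCM4 was lost (0) with clones summed, without clone 2 and with WT replicates 1 and 2 or 3 and 4 only. In HCT116 (0), no filter and the fit without clone 1 each gave 1. In AGS, DESeq2 gave 2 outside 1q (0) and 1 on 1q (0), as did no filter on 1q. In A2780 outside 1q (9), clones summed gave 4, no clone 5 gave 15, WT controls only 4 and TK+ controls only 0. In MCF10A outside 1q (0), DESeq2 gave 2 and the fits without clone 1 or clone 4 gave 1 each. In MCF10A hRas on 1q (2), DESeq2 gave 5, while no filter, clones summed and no clone 1 or clone 2 gave 0. In hRas WT (0), DESeq2 and no filter gave 1 each. In hRas 1q-loss against 1q-loss (0), the clone number as a block gave 8. Leaving out 1 replicate at a time gave 2 to 5 on 1q in A2058, 0 to 1 on 8q in A2058, 0 to 3 outside 1q (3 without clone 11) and 0 to 1 on 1q (1 without clone 4) in AGS, 0 to 7 on 1q in MCF10A, 0 to 1 on 1q in MCF10A hRas and 0 to 6 in TK+. The log2 change of MKI67, A2780 TK+, was 0.022, and it became 0.21 without TK+ replicate 1 and -0.20 without TK+ replicate 2.

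The main fits did not pair libraries by replicate number. In A2780, mitochondrial genes took 9.14% to 10.7% of counts in the libraries numbered 1 and 6.90% to 8.04% in those numbered 2. The part of this difference in the A2780 results was not tested beyond the block fits below. With the replicate number as a block, 15 members were called outside 1q and 6 on 1q in A2058 1q-loss. That block gave 0 on 8q in A2058, 0 on 1q in MCF10A hRas and 4 in hRas WT. In the other comparisons the block left the count of called members within 1.5 times. Shares of all genes called with the block are not given here, so these counts are not read as results about the members. Without it, 26.0% of all genes outside 1q were called higher and 22.7% lower in A2058 1q-loss. Few libraries per clone, 1 WT library in AGS and 2 WT libraries in HCT116, A2780 and MCF10A limit every test; 1 clone per library in AGS means that clone and library cannot be told apart.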
